A study of Mus musculus with 7 samples.

Results

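The genes described here encode the Golgi enzymes that attach sialic acid, galactose, N-acetylglucosamine, N-acetylgalactosamine and sulfate to the glycans of glycoproteins, glycolipids and proteoglycans. They were chosen by symbol, from the name roots St3gal, St6gal, St8sia, B3gal, B4gal, B3gnt, Galnt, Chst and Chsy, with the requirement of at least 1 read in any library. Of the 26286 genes in the deposited count table, 79 met that rule. Another 3 genes with matching symbols, Galnt5, Galntl5 and Chst13, were at 0 in every library. The rule itself used no measured value beyond that requirement, but the set was chosen with earlier results of these data known. A filter on low counts left 62 of the 79 for testing, and the other 17 are given by their counts at the end.

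The study measured polyadenylated RNA from brain cells labelled as cortical neurons, taken from mouse embryos at embryonic day E16.5. The libraries came from 3 wild type mice and 4 KAT7 mutant mice, all male and of the C57BL/6 strain, and the design text counts them as separate mice. KAT7 belongs to the MYST group of histone acetyltransferases, and the title of the series links it to acetylation of lysine 14 of histone H3. The sources used here do not give the allele, any Cre driver or the way in which the neurons were isolated, and the cells in which KAT7 was altered cannot be stated.

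Most of these enzymes act one after another on a growing chain. Polypeptide GalNAc-transferases start mucin-type O-glycans on serine or threonine, galactosyl- and N-acetylglucosaminyltransferases lengthen chains, and sialyltransferases usually cap them. In the embryonic brain, sialyltransferases also build polysialic acid on the neural cell adhesion molecule NCAM, a modification that loosens contact between migrating neurons and growing axons, and they build the gangliosides of the neuronal membrane. Chondroitin synthases and carbohydrate sulfotransferases make the chondroitin sulfate chains of the brain matrix, whose sulfation pattern sets which guidance and growth factors they bind.

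Kat7 itself had 848 to 869 counts in the wild type libraries and 3 to 10 in the mutant libraries, lower in every library labelled mutant. Library totals were between 8272487 and 8813060 counts. Mutant replicate 1 stood apart from the other 3 mutant libraries on the second principal component, and the counts of called genes are given without it below. Among marker lists for cell types, summed CPM (counts scaled to a common library total with edgeR's TMM factors) of 10 neuron markers were 11493 to 12214 in wild type and 10762 to 11587 in the mutant, with 4 of the 10 called higher and 2 lower. Stmn2, a neuronal microtubule regulator on that list, alone fell from 1334 to 328 CPM. Of 8 tested radial glia markers 5 fell, with sums of 243 to 262 and 179 to 218 CPM over the 9 genes listed. Of 5 oligodendrocyte lineage markers 4 rose, from sums of 10.2 to 14.0 to sums of 16.8 to 32.4 CPM, and 4 of 5 tested microglia markers rose, from 16.2 to 19.1 to 24.9 to 34.1 CPM over 8 genes. Of 3 tested astrocyte markers 2 fell, with sums of 26.0 to 35.6 and 10.98 to 20.4 CPM over 5 genes. Of 7 interneuron markers 4 rose and 1 fell, with overlapping sums of 253 to 408 CPM in wild type and 322 to 439 CPM in the mutant. Of 5 intermediate progenitor markers 1 rose and 2 fell, and of 3 tested endothelial or pericyte markers 1 fell. No tested meningeal fibroblast or blood marker was called. Sums over the blood markers were 22.2 to 129 CPM in wild type and 52.5 to 162 CPM in the mutant. Over all 13681 tested genes 13.1% were called higher and 15.8% lower. No listed marker was at 0 in all libraries. In these bulk samples a change in the number of cells of a type and a change in RNA per cell cannot be told apart, and the part of these cell types in the results that follow was not tested.

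Of the 62 tested enzyme genes, 27 differed between KAT7 mutant and wild type at an adjusted p under 0.05 in edgeR's quasi-likelihood test: 19 fell, 8 rose and 35 were not called. That is 43.5% of the set, with 30.6% lower and 12.9% higher. Over all 13681 genes tested, 28.9% were called, 15.8% lower and 13.1% higher. The share that rose was near the background, and the share that fell was above it. Because the set was chosen with earlier results of these data known, this difference is descriptive and was not tested. Level bears on such shares: among genes with a mean of at least 10 CPM, 30.6% of all genes and 21 of 42 enzyme genes (50%) were called, 15 of them lower. Among genes under 10 CPM the shares were 25.3% of all genes and 6 of 20 enzyme genes (30%). The median log2 fold change of the enzyme genes was -0.03, beside 0.00 over all tested genes. The log2 fold changes ran from -1.90 to 0.68, and 5 of the called genes were lower by at least 2-fold. Without mutant replicate 1, the same test called 21 lower and 8 higher.

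By family, 10 of 16 tested sialyltransferases (62.5%) and 7 of 12 Chst and Chsy genes (58.3%) were called. Among B3gal, B4gal and B3gnt genes 5 of 20 (25%) were called, and among polypeptide GalNAc-transferases 5 of 14 (35.7%). The family medians were -0.23, -0.17, 0.06 and -0.02 on the log2 scale, in that order. No test compared families with each other.

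**Figure D1:**
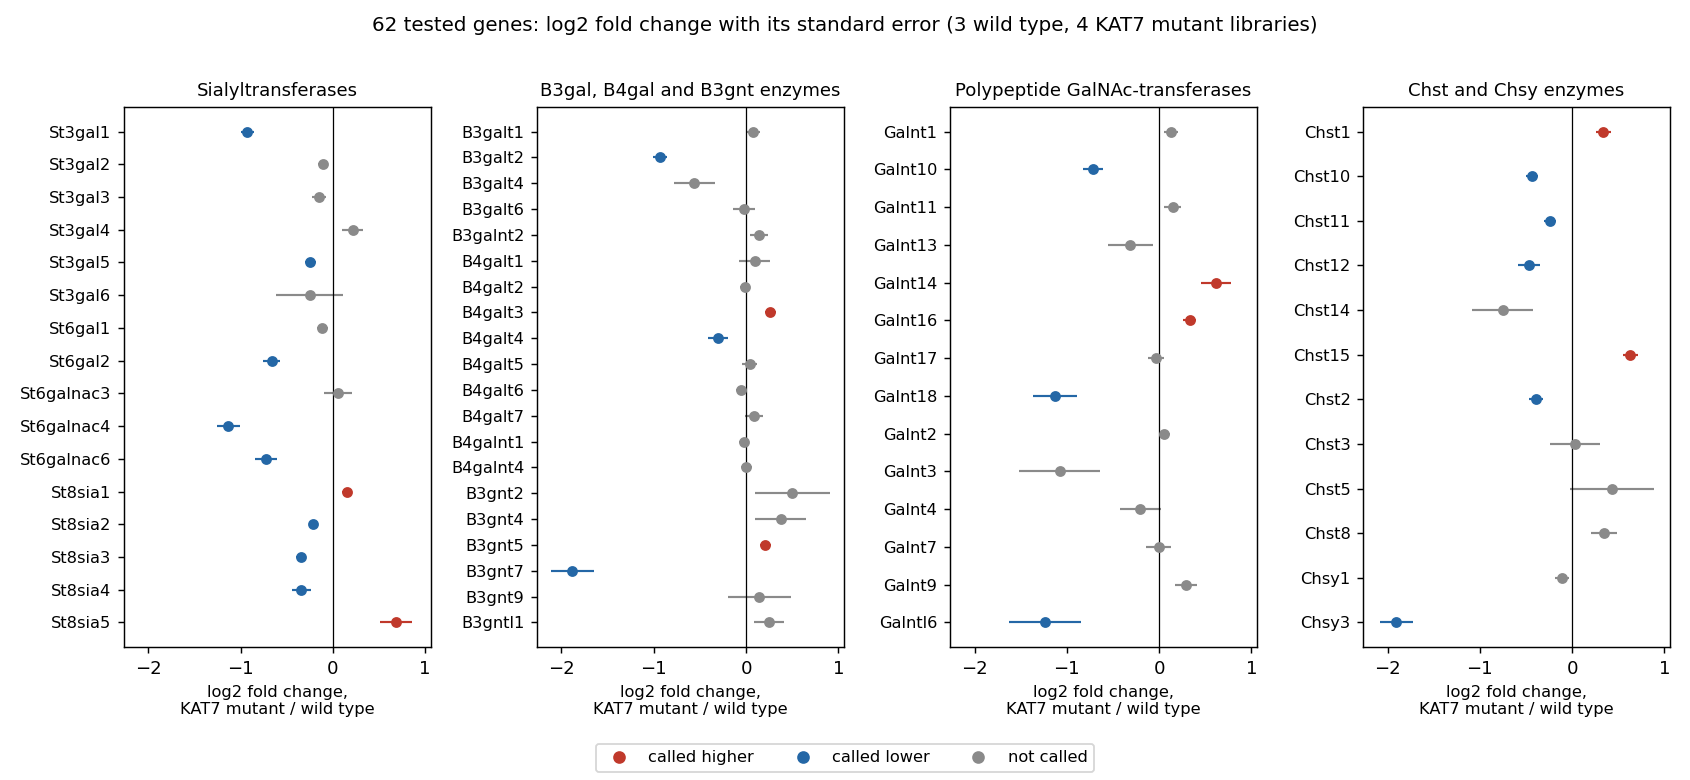
Log2 fold change of KAT7 mutant over wild type (x axis) for the 62 tested enzyme genes in 4 families, with bars of 1 standard error from edgeR's quasi-likelihood fit. Blue points (19) were called lower, red points (8) higher and grey points (35) not called. The lowest points are Chsy3 at -1.90 and B3gnt7 at -1.88, and the highest is St8sia5 at 0.68.

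The promoters of B3gnt7 and Chst15 show the kind of sequence from which these genes are transcribed. They belong to the called members with the second-largest fall and the second-largest rise, since the windows of Chsy3 and St8sia5 were not used here. Each sequence is the 250 bases just upstream of the most upstream annotated start, 5′ to 3′ on the gene's own strand, from RefSeq on build GRCm38.p6. The B3gnt7 window is chr1:86302971-86303220 on the plus strand, and the Chst15 window is chr7:132317229-132317478 on the minus strand. Capitals mark GGGCGG or its reverse complement CCGCCC, the GC box bound by Sp1-type factors.
B3gnt7: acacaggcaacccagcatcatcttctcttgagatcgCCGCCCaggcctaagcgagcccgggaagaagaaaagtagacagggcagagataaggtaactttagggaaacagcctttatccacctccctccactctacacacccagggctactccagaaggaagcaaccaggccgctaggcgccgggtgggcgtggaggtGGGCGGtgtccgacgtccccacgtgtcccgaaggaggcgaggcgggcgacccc
Chst15: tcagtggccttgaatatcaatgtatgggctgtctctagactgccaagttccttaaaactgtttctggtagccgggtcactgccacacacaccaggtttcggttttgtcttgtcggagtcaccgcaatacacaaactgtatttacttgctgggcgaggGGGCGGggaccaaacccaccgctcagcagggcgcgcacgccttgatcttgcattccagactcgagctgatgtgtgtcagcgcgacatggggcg

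The B3gnt7 window held 2 GC boxes and 61.6% G and C, and the Chst15 window held 1 and 54.8%. Both lacked TATAAA on either strand. Over the 60 of 79 members with a RefSeq window (72 windows), 61.1% held GGGCGG on either strand, compared with 42.6% of 21263 windows of protein-coding genes and 32.7% of all 32851 windows. TATAAA stood in 1.39% of member windows, 11.6% of protein-coding and 12.4% of all windows. The only member window with TATAAA was that of Galntl6. CCAAT on either strand was in 31.9%, 35.4% and 33.8%. Median G and C content was 64.0% in members and 55.6% in protein-coding windows, and the ratio of observed to expected CpG was 0.708 and 0.53. The comparison windows were not limited to genes with counts in these libraries, as the members were. Whether these differences exceed those of expressed genes in general was not tested. The members called lower and those not called held the GC box in like shares, 66.7% of 15 windows and 63.6% of 33, and those called higher in 60% of 10. The members not tested held it in 50% of 14 windows. A motif match here is a description of letters and not of a bound site.

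The most abundant sialyltransferase, and the most abundant of all 79 genes, was St8sia2, which builds polysialic acid on NCAM in the developing brain. Per kilobase of the deposited gene length, its wild type level was 113 CPM per kb, ahead of 46.05 for the galactosyltransferase gene B4galt2 and 41.7 for the ganglioside enzyme gene B4galnt1. The levels of these latter genes are less certain, since other genes overlap 28.2% of the exon bases of B4galt2 and 20.7% of those of B4galnt1. St8sia2 was at 593, 611 and 613 CPM in the wild type libraries and at 474, 538, 537 and 540 CPM in the mutant libraries. All mutant libraries lay below all wild type libraries, and mutant replicate 1 lay lowest. The log2 fold change was -0.21 ± 0.05 (SE; adjusted p = 0.0034, edgeR's quasi-likelihood test). St8sia4, the second polysialyltransferase gene, was at 76.7, 90.4 and 63.0 CPM in wild type and 50.8, 57.6, 68.8 and 64.8 CPM in the mutant. Its groups overlapped, since wild type replicate 3 lay under 2 of the mutant libraries. The fall of 0.34 ± 0.10 on the log2 scale (adjusted p = 0.0154) was not called without wild type replicate 2 (adjusted p = 0.165) or with DESeq2 (0.13), and the adjusted p was as low as 2.23e-05 in another setting. The summed level of both genes was 126 ± 3.02 CPM per kb in wild type (SD, n = 3) and 108 ± 7.19 in the mutant (n = 4), and St8sia2 made up 89.3% of it in wild type and 90.1% in the mutant. St8sia3, whose product adds sialic acid to sialic acid on glycoproteins and glycolipids, fell from 149 ± 8.79 to 117 ± 6.25 CPM (log2 fold change -0.35 ± 0.06, adjusted p = 0.000121), with no overlap. St8sia6, the remaining ST8SIA gene, had 2 counts in all.

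The 3 listed carriers of polysialic acid rose. They belong to a list of 10 genes that also holds proteoglycan core proteins, of which 9 were tested, 4 rose and 1 fell. Over all tested genes 13.1% were called higher. Ncam1, the main carrier, rose by 0.18 ± 0.05 on the log2 scale (adjusted p = 0.00897, edgeR). The synaptic adhesion gene Cadm1 rose by 0.33 and the semaphorin receptor gene Nrp2 by 0.57.

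The sialyltransferases that cap galactose or N-acetylgalactosamine held the larger falls. St3gal1, which sialylates the core-1 O-glycan, was at 81.0, 83.8 and 95.1 CPM in wild type and at 43.3, 50.9, 43.2 and 44.6 CPM in the mutant. The mutant libraries were close together at about 52.6% of the wild type mean, far from any wild type library. The log2 fold change was -0.93 ± 0.07 (adjusted p = 8.56e-09). St6galnac4, whose product adds sialic acid to the N-acetylgalactosamine of an already sialylated core-1 glycan, was at 16.1, 17.3 and 21.4 CPM in wild type and at 7.95, 8.81, 8.27 and 8.19 CPM in the mutant. It had the largest fall of any sialyltransferase tested, -1.14 ± 0.12 (adjusted p = 8.25e-07). Thus RNA of an enzyme gene for each of 2 successive sialylations of the same O-glycan fell. The related genes St3gal2 (-0.11) and St6galnac3 (0.06) were not called. St6galnac6, which acts on gangliosides, fell from 19.3 ± 1.60 to 11.7 ± 1.70 CPM (-0.72 ± 0.12, adjusted p = 0.000121).

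St6gal2, which caps the terminal galactose of N-acetyllactosamine units, was at 33.5, 36.5 and 31.5 CPM in wild type and at 20.8, 24.3, 19.0 and 21.2 CPM in the mutant. The groups lay apart, and the log2 fold change was -0.66 ± 0.09 (adjusted p = 1.93e-05). Its relative St6gal1 was the more abundant of the pair per kilobase and was not called, at 109 ± 8.00 and 101 ± 4.66 CPM (-0.12, adjusted p = 0.168). St6gal1 therefore held 62.1% of the pair's summed CPM per kb in wild type and 70.6% in the mutant. Among the ST3GAL genes, St3gal2 (-0.11 ± 0.05) and St3gal4 (0.21 ± 0.11) were not called although their groups did not overlap. St3gal3 (-0.15), St3gal6 (-0.25) and St6galnac3 (0.06) were not called and their groups overlapped. The summed level of the 6 ST3GAL genes went from 89.3 ± 1.05 to 75.1 ± 2.23 CPM per kb, and that of the 6 ST6GALNAC genes from 13.9 ± 0.361 to 8.87 ± 0.825.

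**Figure D2:**
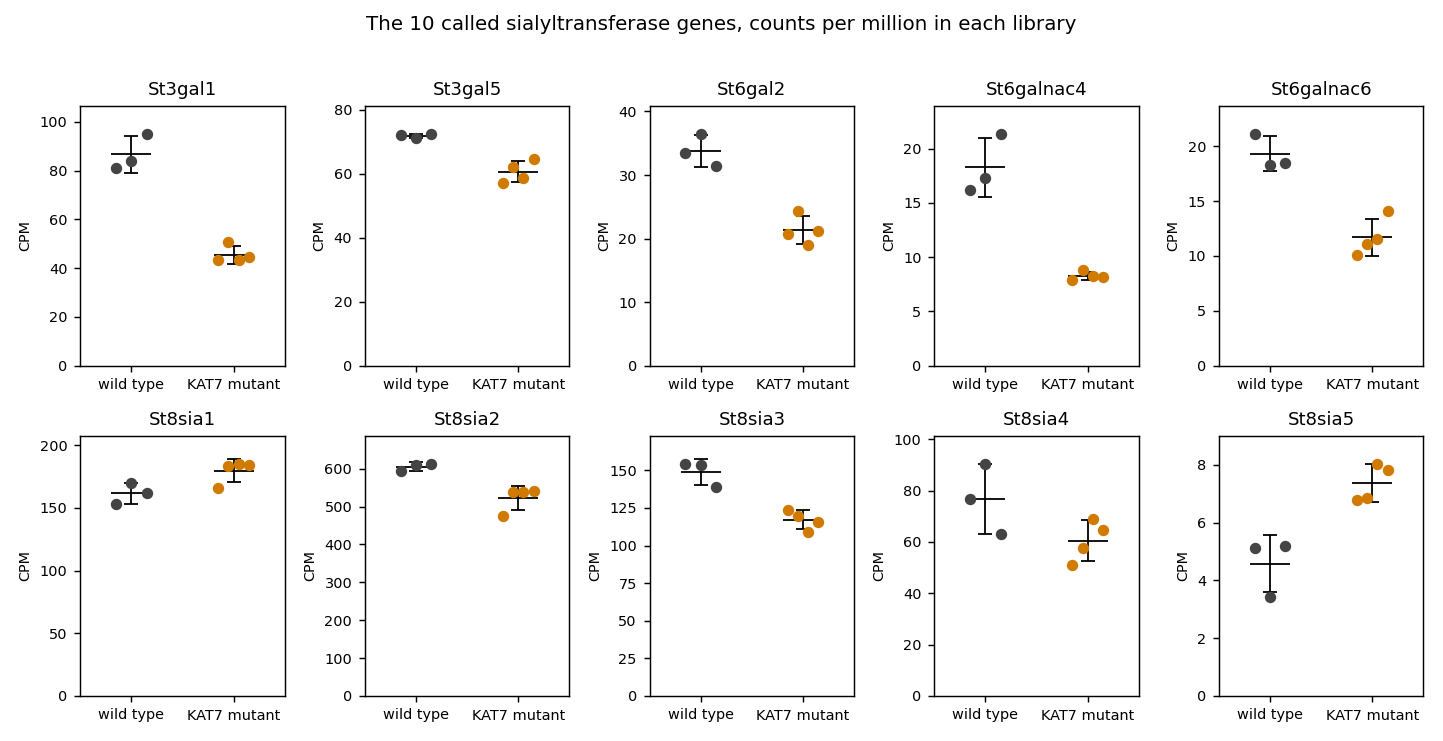
CPM (y axis, from 0) in each library for the 10 called sialyltransferase genes, with 3 wild type (grey) and 4 KAT7 mutant (orange) points, the group mean and bars of 1 SD. The groups lie apart in 8 panels and overlap for St8sia1 and St8sia4, and only St8sia1 and St8sia5 are higher in the mutant.

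Of 8 genes grouped here for the main steps of ganglioside synthesis, a set that leaves out St6galnac6 and was put together after the values were seen, 1 fell, 2 rose and 5 were not called. That is 37.5% called, 25% higher and 12.5% lower. Over all tested genes the shares were 28.9%, 13.1% and 15.8%, and the difference was not tested. Gangliosides are sialylated glycolipids that start from lactosylceramide. St3gal5 encodes the enzyme that makes the first of them, GM3, and St8sia1 the enzyme that converts GM3 to GD3. St3gal5 was at 72.0, 71.3 and 72.5 CPM in wild type and at 57.1, 62.1, 58.8 and 64.6 CPM in the mutant, a fall of 0.25 ± 0.06 on the log2 scale with no overlap (adjusted p = 0.00471). St8sia1 was at 153, 169.7 and 162 CPM in wild type and at 166, 184, 185 and 184 CPM in the mutant. Mutant replicate 1 lay below wild type replicate 2, so the groups overlapped. The rise of 0.15 ± 0.06 had an adjusted p of 0.0425, close to the threshold, and was lost in 9 of the 15 other settings tried. Those included leaving out wild type replicate 1 or 3 or mutant replicate 2, 3 or 4, and the adjusted p ranged from 0.0101 to 0.208 over the settings. St8sia5, which acts late in the pathway on more complex gangliosides, was at 5.11, 3.43 and 5.20 CPM in wild type and at 6.78, 6.84, 8.03 and 7.82 CPM in the mutant. Every mutant library was above every wild type library, and the log2 fold change of 0.68 ± 0.17 was the largest rise among the 62 genes (adjusted p = 0.00527).

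The other 5 genes of this set were not called. The lactosylceramide synthase genes B4galt5 (0.04 ± 0.08) and B4galt6 (-0.05 ± 0.05) and the GM2 and GD2 synthase gene B4galnt1 (-0.03 ± 0.05) were not called, with overlapping groups. B3galt4, which makes GM1 and GD1b, was at 3.57 ± 0.535 and 2.42 ± 0.399 CPM and was not called (-0.56 ± 0.22, adjusted p = 0.0677), although its groups did not overlap. The summed level of the 8 ganglioside genes was 149 ± 1.83 CPM per kb in wild type and 145 ± 2.02 in the mutant. Within it the share of St3gal5 went from 19.7% to 17.1% and that of St8sia5 from 1.46% to 2.42%. Of the 8 tested genes for other glycolipid enzymes and activators, Gla, which removes terminal alpha-galactose, rose by 0.49. Gm2a, the activator of GM2 breakdown, fell by 0.46, and Arsa, which desulfates sulfatide, fell by 0.71. The other 5 were not called, which makes 37.5% called, beside 28.9% over all tested genes.

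Chondroitin synthesis contained the largest fall of all. Chsy3 encodes one of the chondroitin synthases, which polymerise the repeating disaccharide. It was at 8.19, 8.81 and 7.69 CPM in wild type and at 1.75, 2.32, 2.36 and 2.32 CPM in the mutant, from 68 to 77 counts and 15 to 20 counts per library. The mutant mean was 26.6% of the wild type mean, and the log2 fold change was -1.90 ± 0.18 (adjusted p = 1.07e-07). The more abundant synthase gene Chsy1 was not called, at 53.7 ± 2.57 and 49.9 ± 5.28 CPM (-0.11 ± 0.08, adjusted p = 0.334). Chsy3 therefore held 14.1% ± 0.667 of the summed CPM per kb of Chsy1 and Chsy3 in wild type and 4.55% ± 0.833 in the mutant. That sum leaves out the related genes Chpf and Chpf2, at 17.2 and 4.98 CPM per kb in wild type. Neither Chpf (-0.08) nor Chpf2 (0.09) was called, and Chsy3 would hold a smaller share of a sum that included them. Csgalnact1, which adds the N-acetylgalactosamine that commits a linker to chondroitin, fell by 0.73 ± 0.24 (adjusted p = 0.0253). The linker galactosyltransferase genes B4galt7 (0.09) and B3galt6 (-0.02) were not called.

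Sulfotransferases of the chondroitin chain moved in both directions. Chst11 and Chst12 encode enzymes that sulfate N-acetylgalactosamine at carbon 4. Chst11 was at 82.8, 81.1 and 76.9 CPM in wild type and at 75.6, 66.2, 64.6 and 66.3 CPM in the mutant, and Chst12 was at 14.8, 13.7 and 12.4 CPM and at 10.3, 9.85, 9.10 and 10.3 CPM. Both fell without overlap, by 0.24 ± 0.06 (adjusted p = 0.00907) and 0.47 ± 0.12 (adjusted p = 0.00547). For Chst11, mutant replicate 1 lay close under the lowest wild type library. Chst15 encodes the enzyme that adds a further sulfate, at carbon 6, to units already sulfated at carbon 4, which gives the disulfated chondroitin sulfate E unit.

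Chst15 was at 60.4, 56.8 and 55.0 CPM in wild type and at 72.8, 102, 89.3 and 91.7 CPM in the mutant. All mutant libraries were higher, mutant replicate 1 by the least, and the log2 fold change was 0.63 ± 0.09 (adjusted p = 1.23e-05). In the GENCODE vM21 annotation 17.9% of the exon bases of Chst15 overlap the gene model Gm10584 on the other strand, and the strand setting of the counting is not known. Over 6 chondroitin and dermatan sulfotransferase genes with Chst symbols the sum was 37.2 ± 1.68 CPM per kb in wild type and 39.9 ± 2.00 in the mutant. That set was put together after the values were seen and leaves out Ust, which sulfates the uronic acid. Ust was called lower, at 8.69 CPM per kb in wild type and 6.32 in the mutant, so the sum and its shares do not cover all such genes. Within the sum of the 6 genes, Chst15 went from 36.2% ± 0.154 to 52.2% ± 4.89, Chst11 from 39.1% to 31.0% and Chst12 from 20.6% to 13.9%. In the 4 mutant libraries the share of Chst15 was 45.2%, 56.6%, 53.9% and 53.0%, so replicate 1 moved least. Chst3, the main chondroitin 6-O-sulfotransferase gene, was low at 2.11 and 2.16 CPM and was not called. Chst14, which sulfates dermatan, was at 2.15 ± 0.733 and 1.27 ± 0.451 CPM and was not called (-0.75 ± 0.33, adjusted p = 0.0955).

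**Figure D3:**
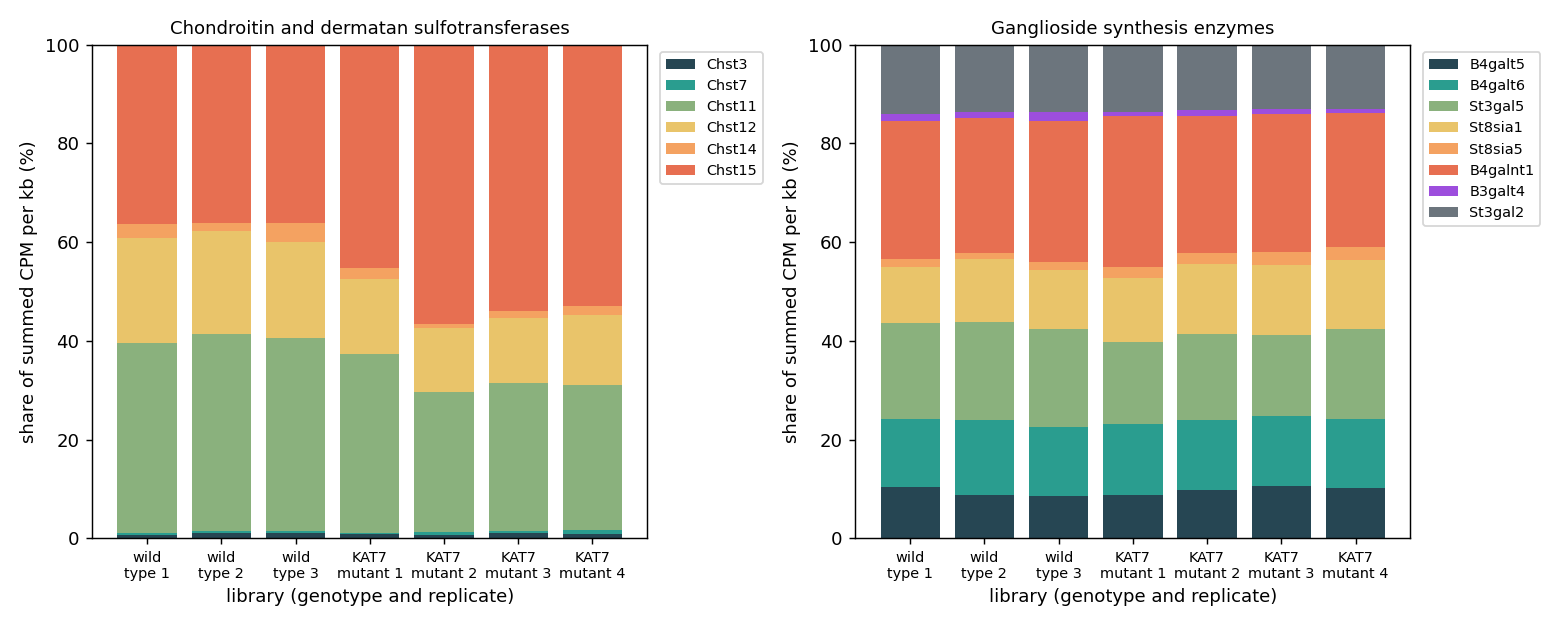
Share (y axis, percent) of the summed CPM per kb held by each gene in each library, for 6 chondroitin and dermatan sulfotransferase genes (without Ust) and 8 ganglioside synthesis genes. Chst15 holds 36.0% to 36.4% in the wild type libraries and 45.2% to 56.6% in the mutant libraries. Among the ganglioside genes St3gal5 takes a smaller share in every mutant library than in any wild type library, and St8sia5 a larger one.

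Of 18 tested genes for other enzymes and transporters of chondroitin synthesis, 2 rose and 4 fell. That is 33.3% called, beside 28.9% over all tested genes. Besides Csgalnact1, the falls were in Ust (-0.46), which sulfates the uronic acid, in Dsel (-0.48), an epimerase that makes dermatan, and in Bpnt2 (-0.17), which clears a by-product of sulfation. Pxylp1, the linker xylose phosphatase gene, rose by 0.44 and Slc35d1, a nucleotide sugar transporter gene, by 0.39. Among the proteoglycan core proteins, Vcan (versican) rose by 0.26 and Ptprz1 (phosphacan) fell by 0.70 ± 0.05 (adjusted p = 2.98e-09, edgeR). Ptprz1 is also a radial glia gene, and 5 of 8 tested radial glia markers fell. A link between these falls was not tested.

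Keratan sulfate and poly-N-acetyllactosamine are built from alternating galactose and N-acetylglucosamine. B3gnt7, which lengthens sulfated chains of this kind, had the second-largest fall of the set. It was at 7.60, 6.06 and 5.43 CPM in wild type and at 2.45, 1.16, 1.77 and 1.47 CPM in the mutant, from 48 to 64 counts and 10 to 21 counts per library. The groups were far apart, with a log2 fold change of -1.88 ± 0.23 (adjusted p = 3.57e-06). Its promoter window is the first of those printed above. In the annotation 12.6% of its exon bases overlap the gene model Gm28626. B4galt4, which adds galactose to sulfated N-acetylglucosamine, was at 15.6 ± 0.531 and 12.6 ± 0.306 CPM and fell by 0.30 ± 0.11 (adjusted p = 0.0361), a call that was lost in 10 of the 15 other settings. Those included leaving out any wild type library or mutant replicate 2, 3 or 4, with adjusted p from 0.0296 to 0.136 over the settings.

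The sulfotransferases of these chains split. Chst2, which sulfates N-acetylglucosamine, was at 118, 117 and 116 CPM in wild type and at 73.1, 100.4, 91.6 and 92.6 CPM in the mutant, a fall of 0.39 ± 0.08 (adjusted p = 0.000608). The wild type libraries were nearly equal and the mutant libraries spread widely below them, with replicate 1 lowest. Chst1, which sulfates the galactose of keratan, was at 27.3, 29.98 and 26.7 CPM in wild type and at 32.5, 35.0, 36.7 and 37.5 CPM in the mutant, a rise of 0.34 ± 0.08 without overlap (adjusted p = 0.00375). B3gnt2, B3gnt4, B3gnt9 and Chst5 had group means between 0.768 and 2.25 CPM and were not called.

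The HNK-1 epitope, a sulfated glucuronic acid carried by neural adhesion molecules, needs Chst10 for its sulfate and B3gat1 or B3gat2 for the glucuronic acid. Chst10 was at 87.3, 94.4 and 90.3 CPM in wild type and at 74.3, 64.7, 62.6 and 66.6 CPM in the mutant. All mutant libraries were lower, replicate 1 by the least, and the log2 fold change was -0.43 ± 0.06 (adjusted p = 3.41e-05). B3gat1 fell from 337 to 233 CPM (-0.53 ± 0.05, adjusted p = 3.31e-07), and B3gat2 was not called. Chst8, which sulfates N-acetylgalactosamine on glycoprotein hormones, was not called, at 9.68 ± 1.62 and 12.3 ± 1.29 CPM (0.35 ± 0.14, adjusted p = 0.0641).

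**Figure D4:**
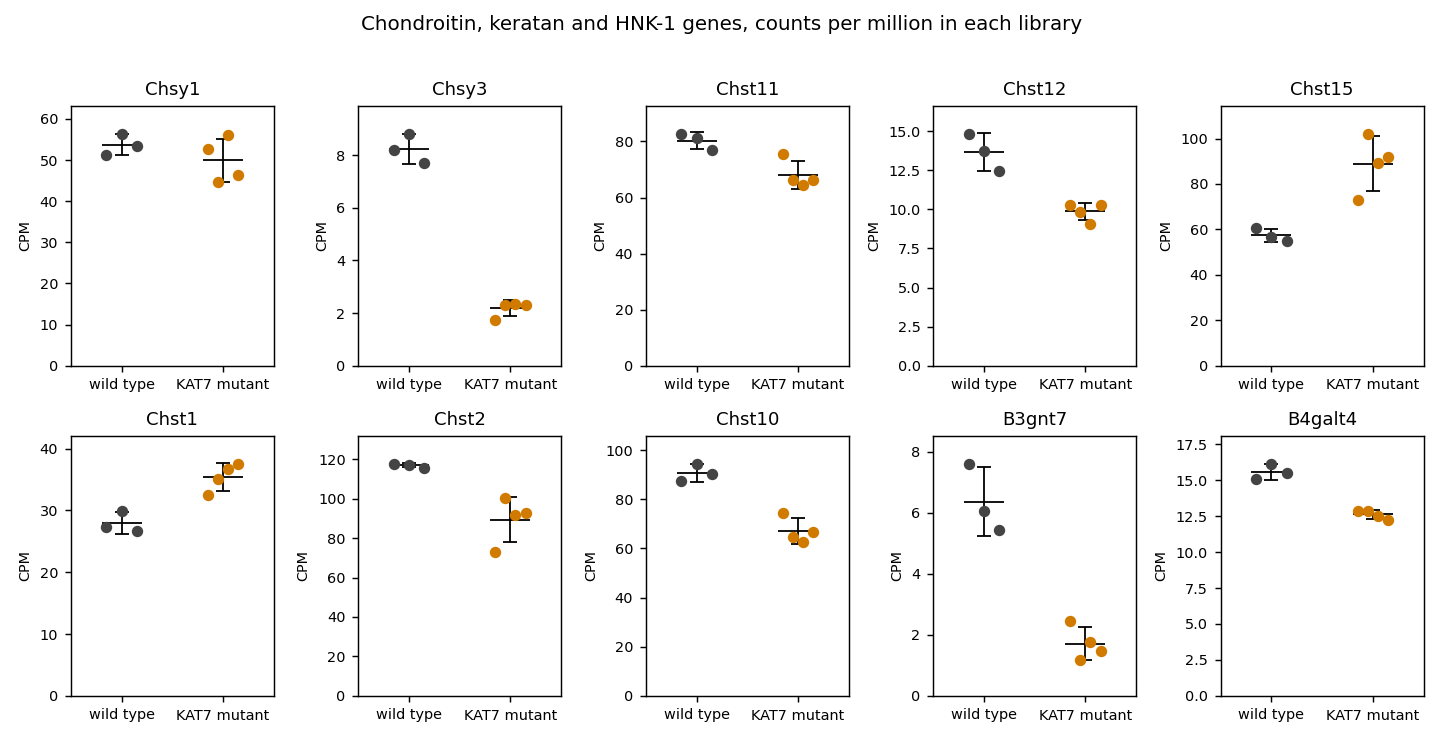
CPM (y axis, from 0) in each library for 10 genes of chondroitin, keratan and HNK-1 synthesis, with 3 wild type (grey) and 4 KAT7 mutant (orange) points, the group mean and bars of 1 SD. Chst15 and Chst1 are higher in every mutant library, Chsy1 overlaps, and the other 7 genes are lower in every mutant library. All genes shown but Chsy1 were called, so groups that lie apart follow in part from that choice. Uncalled genes of these pathways with overlapping groups, such as Chst3, Chst14, Chst5 and B3gnt2, are not shown.

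Among the remaining galactosyl- and N-acetylglucosaminyltransferases, 1 gene was called with a change of more than 0.30 on the log2 scale. B3galt2, which adds galactose to N-acetylglucosamine, was at 47.7, 48.5 and 46.95 CPM in wild type and at 23.1, 27.1, 25.4 and 24.3 CPM in the mutant. Replicates of each genotype lay within a few CPM of each other and the groups were far apart, with a log2 fold change of -0.93 ± 0.08 (adjusted p = 1.36e-08). B3galt1, the other abundant gene of its family, was not called, at 93.8 ± 5.37 and 99.2 ± 9.06 CPM. B4galt3, which makes N-acetyllactosamine, rose from 67.0 ± 2.56 to 80.6 ± 2.80 CPM (0.27 ± 0.06, adjusted p = 0.00193), and 14.5% of its exon bases overlap Ppox. B3gnt5, which starts the lacto-series glycolipids, was at 99.4, 107 and 99.7 CPM in wild type and at 129, 112, 122 and 109.8 CPM in the mutant. It rose by 0.21 ± 0.06 (adjusted p = 0.0142), with mutant replicate 4 close above wild type replicate 2, and was not called without wild type replicate 1 (adjusted p = 0.0652) or 3 (0.0608), within a range of 0.00577 to 0.0652 over the settings. The abundant genes B4galt2 (-0.01 ± 0.06), a maker of N-acetyllactosamine, and B4galnt4 (0.00 ± 0.06), which makes the related unit with N-acetylgalactosamine, were not called. The most abundant B3gnt genes not called, per kilobase, were B3gntl1 and B3gnt4 (0.37 ± 0.27). B3gntl1 was at 5.31 ± 0.499 and 6.31 ± 0.802 CPM (0.25 ± 0.16, adjusted p = 0.287, edgeR). B3galnt2, which acts on the O-mannosyl glycan of dystroglycan, was at 18.7 ± 0.917 and 20.6 ± 1.97 CPM and was not called. None of 10 tested genes for other steps of dystroglycan O-mannosylation was called by edgeR, DESeq2 or limma-voom. In edgeR 2 of them had an unadjusted p under 0.05, and Pomgnt1 had a log2 fold change of -0.03.

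The 2 most abundant polypeptide GalNAc-transferase genes, Galnt2 at 114 ± 7.56 and 119 ± 6.06 CPM and Galnt17 at 78.4 ± 7.63 and 76.6 ± 9.53 CPM, were not called. In the annotation 90% of the exon bases of Galnt2 overlap other genes, among them Gm20388 on the same strand, so its level and rank are uncertain. The called genes were less abundant than Galnt2 and Galnt17, though Galnt16, described below, came next after them per kilobase. Galnt10 was at 20.3, 20.03 and 24.1 CPM in wild type and at 12.9, 11.2, 13.8 and 14.4 CPM in the mutant, a fall of 0.72 ± 0.11 without overlap (adjusted p = 7.17e-05). Galnt18 was at 6.17, 3.32 and 4.19 CPM in wild type and at 1.99, 2.09, 2.13 and 2.08 CPM in the mutant. The mutant libraries were almost equal and the wild type libraries spread, and the log2 fold change was -1.13 ± 0.24 (adjusted p = 0.00125). Galntl6 fell by 1.24 ± 0.39 (adjusted p = 0.0202) from 12 to 18 counts per wild type library to 3 to 11 counts per mutant library, and DESeq2 did not call it (adjusted p = 0.0784). It was also not called without wild type replicate 3 (0.0942), mutant replicate 2 (0.0597) or mutant replicate 3 (0.0588), and the lowest adjusted p over the settings was 0.00294.

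In the same family, Galnt16 was at 48.9, 45.2 and 43.1 CPM in wild type and at 57.1, 60.3, 53.4 and 59.4 CPM in the mutant, a rise of 0.33 ± 0.07 (adjusted p = 0.00115). Galnt14 was at 7.12, 5.03 and 5.77 CPM in wild type and at 8.41, 8.35, 8.51 and 11.4 CPM in the mutant, a rise of 0.61 ± 0.17 (adjusted p = 0.00775). Both rose without overlap, and the Galnt14 call was lost without wild type replicate 2 (adjusted p = 0.0578, the highest in a range that began at 0.00157). Galnt3 was at 1.58 ± 0.509 and 0.744 ± 0.524 CPM and was not called (-1.08 ± 0.44, adjusted p = 0.0727). The 17 GALNT genes with any count summed to 97.5 ± 4.04 CPM per kb in wild type and 102 ± 1.61 in the mutant.

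Across the 7 lists of genes for neighbouring steps, 71 of 86 genes were tested, 9 rose and 11 fell, which is 28.2% called and close to the 28.9% over all genes. Of 8 tested genes for sialic acid supply and removal, the lysosomal sialidase gene Neu1 fell by 0.56 ± 0.10 (adjusted p = 0.000266) and the sialic acid esterase gene Siae rose by 0.60 ± 0.15 (adjusted p = 0.00485). The other 6 were not called. Of 16 tested genes for N-glycan branching, O-glycan cores and nucleotide sugars, the branching enzyme genes Mgat4c and Mgat4b fell by 1.82 and 0.17, and the mannosidase gene Man2a1 rose by 0.48.

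The 17 members that did not pass the count filter had 1 to 42 counts over all 7 libraries and at most 10 in any library. They were St6galnac1, St6galnac2, St6galnac5, St8sia6, B3galt5, B3galnt1, B4galnt2, B4galnt3, B3gnt3, B3gnt6, B3gnt8, Galnt6, Galnt12, Galnt15, Chst4, Chst7 and Chst9. They were left out by that filter and no test of them is reported. B3galt5 had the highest total, with 8 to 10 counts in the wild type libraries and 1 to 5 in the mutant libraries.

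Of the 27 called genes, 21 kept their call and direction in all 15 other settings. Exons of 10 of the 27 share bases with another gene in GENCODE vM21, over 10% of the gene's exon bases for B4galt3, B3gnt7 and Chst15. Reads from such bases cannot be assigned with certainty.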

How the data were processed

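Polyadenylated RNA of 3 wild type and 4 KAT7 mutant mice was sequenced. The authors deposited whole-number counts per gene with Entrez identifiers and gene lengths, made with featureCounts and naming assembly mm9, as the submitters' processing notes record. Of the counting, the aligner, the annotation and the strandedness are not stated in the sources used here, and reads from overlapping genes cannot be assigned to one of them. Symbols came from an NCBI gene table of GRCm38.p6, for 24176 of 26286 identifiers (92%).

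Genes were filtered with filterByExpr (minimum count 10), scaled by TMM (factors 0.9894 to 1.01) and compared by edgeR 4.0.16 (R 4.3.3), quasi-likelihood F test, two-sided, in a model of genotype alone. Adjustment was by Benjamini-Hochberg over 13681 genes and genes were called at an adjusted p under 0.05. The SE was derived from the log2 fold change and the square root of its F value. Levels between genes were compared only as CPM per kb of deposited gene length. The fit was tested on simulated data. DESeq2 1.42.0, limma-voom (limma 3.58.1), other scalings, filters and thresholds, a replicate block and leaving out each library were alternatives.

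Every called member was named with its statistics, and of those not called the 2 most abundant of each family. The members and gene lists were chosen with earlier results of these data known. The sets whose CPM per kb were summed were put together by known enzyme role after the values were seen. RefSeq promoter windows and GENCODE vM21 exons (GRCm38) served as annotation only.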

Additional observations from a re-analysis of the deposited data

Results flagged for a closer look

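In 7 of the 62 tested genes, 1 of the 4 mutant libraries stood apart from the other 3 by Dixon's ratio, the gap to the nearest library over the whole range of log2(CPM + 0.1), which passed the 95% critical value. Chance alone gives about 1 such gene in 20. Mutant replicate 1 was that library in 5 of the 7. It was lowest for St8sia2 (ratio 0.954; 474 CPM beside 537 to 540.4), St8sia1 (0.922; 166 CPM beside 184 to 185), Chsy3 (0.937; 1.75 CPM beside 2.32 to 2.36) and B3gnt2 (0.86; 0.467 CPM beside 1.22 to 1.42). It was highest for Chst11 (0.839; 75.6 CPM beside 64.6 to 66.3). Mutant replicate 4 was highest for Galnt14 (0.939; 11.4 CPM beside 8.35 to 8.51), and mutant replicate 3 was lowest for Chst5 (0.947; 0.473 CPM beside 1.28 to 1.35). The calls on St8sia2, Chsy3 and Chst11 did not depend on the library left out.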

How the results depend on the processing

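In 15 other settings no called gene changed direction, and 21 of 27 kept their call. The exceptions were St8sia1, St8sia4, B4galt4, B3gnt5, Galnt14 and Galntl6. The 19 lower calls ranged from 17 to 21 and the 8 higher calls from 6 to 9 when 1 library was left out. Among sialyltransferases 1 gene in place of 2 was called higher with library size only, with DESeq2, with the replicate block and at an adjusted p under 0.01, and at that threshold 1 galactosyl or N-acetylglucosaminyl enzyme in place of 2 and 1034 of all genes in place of 1793 were called higher. Leaving out 1 library gave 1 to 2 higher sialyltransferases, 1 to 2 galactosyl or N-acetylglucosaminyl enzymes and 1 to 3 GALNT genes. Uncalled genes gained a call in some setting for St6gal1, Galnt3, Galnt9, Chst14 and Chst8. Same-numbered libraries of the genotypes did not deviate together (correlations 0.018, 0.012 and -0.029), so the numbers were not taken to pair mice. The replicate block called 7 members higher and 18 lower, and over all genes 1460 higher and 1943 lower. Genes under a few CPM are limited by depth.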
